A study of Solanum lycopersicum with 6 samples.

Results

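The genes described here are 6 parts of the plant circadian clock measured in tomato fruit exocarp, the outer fruit layer with its epidermis and cuticle. They were chosen by gene identifier: LHY, TOC1, PRR5, a further pseudo-response regulator and a pair of GIGANTEA genes. The selection named 7 genes, of which 6 had a row among the 21708 genes listed in any library; the seventh, FKF1, was not analysed here. The samples were 3 libraries of wild-type (WT) exocarp and 3 of an SlNOR-like1 knockout, called nor-like1, which lacks a working copy of a NAC transcription factor of fruit; both were taken at the stage labelled MG, and the series compares their RNA with cuticle metabolism in view. The column headers of the authors' own comparison call the mutant nor-like1-1. The labels state no growth conditions or hour of harvest, and they do not say whether the replicates were separate plants, so p-values measure the spread among these 6 libraries alone, and that spread may be technical.

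The plant clock is a set of transcription factors that repress each other in turn through the day. LHY, a MYB factor, peaks around dawn and represses genes of the afternoon and evening, while the pseudo-response regulators, of which TOC1 is the latest to peak in Arabidopsis, repress LHY as the day goes on. GIGANTEA, a large protein of the late day in Arabidopsis, joins with the F-box protein FKF1 in the control of flowering by day length and helps to set the stability of TOC1. Because each of these transcripts peaks at its own hour, a tissue sampled at another hour differs in them.

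The best protein hits in the files gave the assigned names for all but a single gene. The descriptions differed from the names for TOC1, described as APRR5, and for PRR5, described as APRR9. Solyc10g005080.3 is described as late elongated hypocotyl (LHY), Solyc06g069690.4 has APRR1 (the other name of TOC1) as its best protein hit, Solyc03g081240.3 has APRR5, and Solyc04g071990.3 and Solyc12g056650.2 have GIGANTEA and GIGANTEA-like. Solyc10g005030.4, named PRR7 in the selection, is described as APRR5 in the files and has an APRR5 protein as its best hit, so it is called the APRR5-like gene here and was given no hour of the day. No coordinates are printed, as the genome build is not given in the sources used here.

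Total expected counts ranged from 11459875 to 17578533 in WT and from 8503210 to 11023036 in nor-like1, and a floor of 3 counts equals between 0.174 and 0.356 CPM (read counts divided by the TMM-adjusted library size). Per-library values are given in order of replicate number, 1 to 3, throughout. The SlNOR-like1 transcript (Solyc07g063420.3) stood at 129.8, 114.3 and 120.8 CPM across WT and at 24.5, 16.9 and 18.1 CPM across nor-like1. The labels name a mutant but state no direction for this transcript. The 5 epidermal cuticle genes used as tissue markers (GPAT6, CYP86A69, cutin synthase, CD2 and CER6) were all listed in all 6 libraries, with a summed level of 494.6 to 600.5 CPM in WT and 668.4 to 758.9 CPM in nor-like1. The members did not move together: CER6 rose, averaging 275.2 ± 19.0 CPM across WT and 497.3 ± 45.0 CPM across nor-like1 (SD, n = 3 each; edgeR adjusted p = 0.00592), GPAT6 and CYP86A69 were called lower (adjusted p = 0.0279 and 0.0226), and cutin synthase and CD2 were not called. On the first principal component of log2 CPM WT replicate 3 (-23.5) lay between the other WT libraries (-85 and -65.7) and nor-like1 (46.6 to 65.5). On the second it lay farthest from 0 (-48.4). The nor-like1 libraries, in replicate order, lay at 46.6, 65.5 and 62 on the first component and at 29.5, -8.81 and 2.63 on the second. Replicate 1 was thus also set apart from replicates 2 and 3 over all tested genes. In bulk tissue, fewer cells of a type and less RNA per cell cannot be told apart.

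The clock genes set nor-like1 replicate 1 apart from the other nor-like1 libraries. In that library LHY was high and PRR5, the APRR5-like gene and both GIGANTEA genes were low, while nor-like1 replicates 2 and 3 had the reverse. WT replicate 3 leaned the same way as nor-like1 replicate 1 for LHY, PRR5 and both GIGANTEA genes, by smaller amounts. Over all tested genes the deviations of these libraries from their genotype means ran opposite (r = -0.232). The spread inside nor-like1 was larger than the difference between genotypes for each of these clock genes, and no clock gene passed the test between genotypes.

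LHY stood at 4.82, 4.78 and 10.6 CPM across WT and at 31.7, 3.21 and 2.61 CPM across nor-like1. The highest and lowest values both came from nor-like1, so the genotypes overlapped, with WT between them. The 95% Poisson interval of nor-like1 replicate 1, from 348 counts, was 28.5 to 35.2 CPM, and that of nor-like1 replicate 2, from 33 counts, was 2.21 to 4.51 CPM; these intervals cover counting error only. LHY in nor-like1 replicate 1 was 10.9-fold the mean of replicates 2 and 3, and in WT replicate 3 it was 2.20-fold the mean of WT replicates 1 and 2.

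GIGANTEA (Solyc04g071990.3) stood at 160.0, 147.2 and 89.9 CPM across WT and at 59.2, 253.5 and 244.4 CPM across nor-like1. GIGANTEA-like (Solyc12g056650.2) stood at 178.3, 186.5 and 148.0 CPM across WT and at 132.6, 414.1 and 346.5 CPM across nor-like1. For both genes nor-like1 replicate 1 was the lowest of the 6 libraries, WT replicate 3 the next lowest, and nor-like1 replicates 2 and 3 the highest. The mean of nor-like1 replicates 2 and 3 was 4.20-fold the level of replicate 1 for GIGANTEA and 2.87-fold for GIGANTEA-like.

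PRR5 (Solyc03g081240.3), which in Arabidopsis represses LHY in the afternoon, stood at 7.61, 5.40 and 4.13 CPM across WT and at 3.74, 13.0 and 11.3 CPM across nor-like1. Its lowest and highest libraries were those of GIGANTEA. The APRR5-like gene (Solyc10g005030.4) was scarce, with 0.581, 1.59 and 1.58 CPM across WT and 0.729, 2.04 and 2.02 CPM across nor-like1, from between 8 and 26 counts a library. It too was low in nor-like1 replicate 1 beside replicates 2 and 3, although here WT replicate 1 was the lowest library and the Poisson intervals of nor-like1 replicates 1 and 2, 0.315 to 1.44 and 1.26 to 3.12 CPM, overlapped.

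TOC1 (Solyc06g069690.4) varied least of the 6 genes within nor-like1; within WT, GIGANTEA-like varied less. It stood at 56.8, 53.6 and 73.1 CPM across WT and at 79.2, 73.2 and 62.6 CPM across nor-like1. WT replicate 3 and nor-like1 replicate 1 were the highest of their genotypes, as for LHY and unlike PRR5 and the GIGANTEA genes, but the ratio of the highest to the lowest library was 1.36 in WT and 1.27 in nor-like1, against 1.26 for GIGANTEA-like in WT and 12.1 for LHY in nor-like1.

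**Figure D1:**
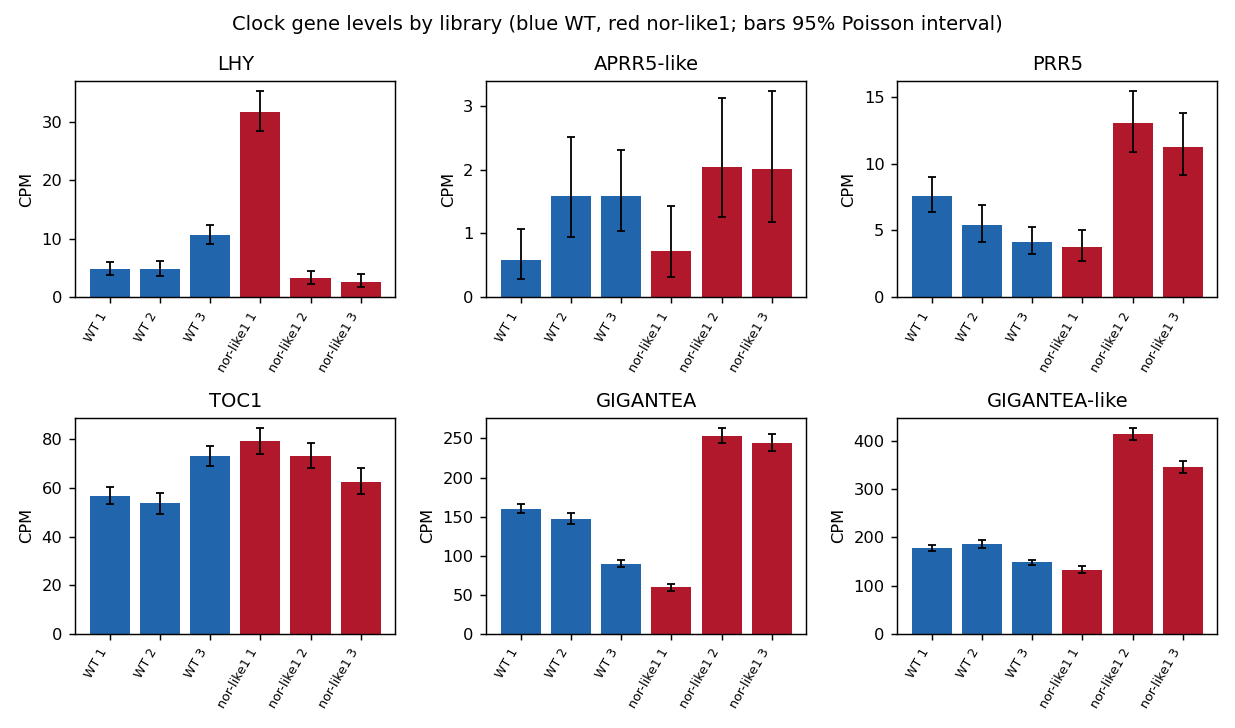
Level of each clock gene in CPM (vertical axes from 0) in the 3 WT libraries (blue) and the 3 nor-like1 libraries (red); thin bars are 95% Poisson intervals of the count. LHY reaches 31.7 CPM in nor-like1 replicate 1 and is at 3.21 CPM or less in nor-like1 replicates 2 and 3, and the GIGANTEA genes have the reverse order in nor-like1.

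Set beside all 16380 genes tested, the spread of the clock genes inside nor-like1 was wide. The range of LHY over the nor-like1 libraries was 3.57 on the log2 scale, wider than that of 99.7% of genes tested. The range was 2.10 for GIGANTEA (wider than 98.5%), 1.79 for PRR5 (97.4%), 1.64 for GIGANTEA-like (96.5%) and 1.43 for the APRR5-like gene, against a median over all genes of 0.36. TOC1, with a range of 0.34, lay at the 47.5th percentile. Inside WT the range was smaller for LHY (1.14, wider than 90.9% of genes), PRR5 (0.88), GIGANTEA (0.83) and GIGANTEA-like (0.33), against a median of 0.34. It was much the same for the APRR5-like gene (1.42) and larger for TOC1 (0.45). The percentiles make no allowance for read number, and the APRR5-like gene had from 8 to 26 counts a library.

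**Figure D2:**
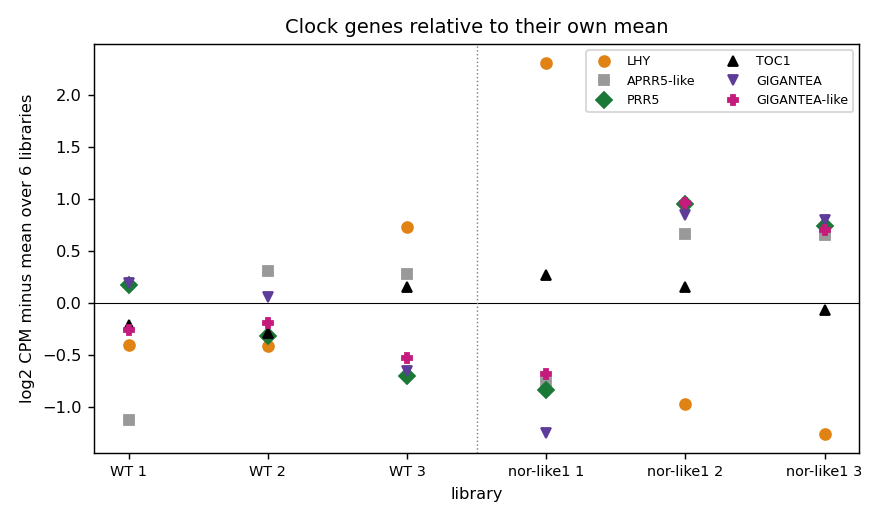
log2 CPM of each clock gene minus its own mean over the 6 libraries, for the libraries named on the horizontal axis; each symbol is a gene and the dotted line parts WT from nor-like1. LHY lies 2.31 above its mean in nor-like1 replicate 1, where GIGANTEA lies at -1.25, and the order is reversed in nor-like1 replicates 2 and 3.

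Morning and evening genes were set against each other within each library, as the log2 CPM of LHY minus the mean log2 CPM of TOC1, PRR5, GIGANTEA and GIGANTEA-like. This difference came to -3.61, -3.46 and -2.08 across WT and to -0.30, -4.94 and -5.04 across nor-like1. The 3 WT libraries therefore lay between nor-like1 replicate 1 and the other nor-like1 libraries, with WT replicate 3 nearest to nor-like1 replicate 1. The mean was -3.05 ± 0.84 in WT and -3.43 ± 2.71 in nor-like1 (SD, n = 3 each), so the genotypes differed by -0.38, less than the SD of either. As the genes were picked for this purpose, the difference is given with no test. Its sign turned to 0.11 without WT replicate 3, to 0.38 without nor-like1 replicate 2 and to 0.43 without nor-like1 replicate 3, and it was -1.94 without nor-like1 replicate 1. The order of the libraries cannot be set against the hour of harvest, which the labels do not give.

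**Figure D3:**
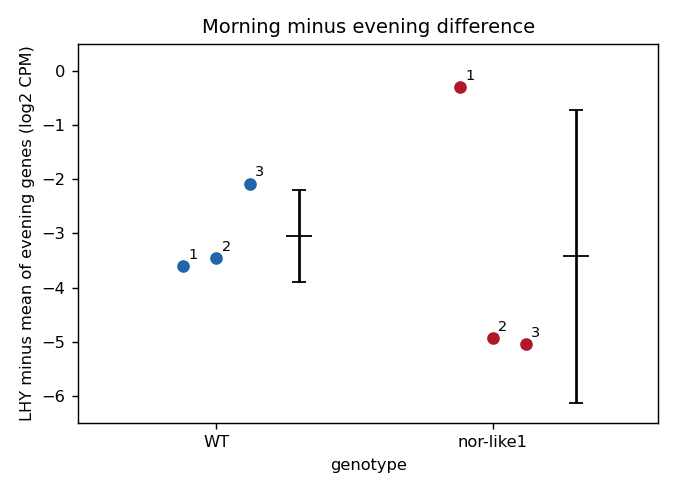
LHY minus the mean of 4 evening genes on the log2 CPM scale for each library, numbered by replicate; the bar beside each genotype is its mean ± SD (n = 3). nor-like1 replicate 1 lies at -0.30 and the other nor-like1 libraries at -4.94 and -5.04, with WT in between.

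Between genotypes, 0 of the 6 clock genes were called, against 21.9% of all genes tested (edgeR quasi-likelihood test, Benjamini-Hochberg adjusted p below 0.05); 0 had an unadjusted p below 0.05 in edgeR. DESeq2, which called 12.3% of all genes higher and 12.3% lower, also called 0 members, with GIGANTEA-like the only 1 at an unadjusted p below 0.05 and no adjusted p-value given for LHY. The genotypes overlapped for all 6, whereas 42.9% of tested genes did not overlap (20.5% higher and 22.4% lower in nor-like1). Each log2 fold change sets nor-like1 against WT, positive where nor-like1 was higher, with a standard error (SE) from the same fit. GIGANTEA-like came nearest to the threshold, averaging 170.9 ± 20.3 CPM across WT and 297.7 ± 146.9 CPM across nor-like1 (SD, n = 3 each), which gave a log2 fold change of 0.80 (SE 0.40, edgeR adjusted p = 0.198). LHY gave 0.90 (SE 0.98, edgeR adjusted p = 0.535), PRR5 0.70 (SE 0.47, adjusted p = 0.325), GIGANTEA 0.49 (SE 0.54, adjusted p = 0.547), the APRR5-like gene 0.35 (SE 0.54, adjusted p = 0.664) and TOC1 0.23 (SE 0.15, adjusted p = 0.315). The estimate for LHY shrank to 0.17 with the replicate block (adjusted p = 0.922), and to 0.21 and 0.10 in limma on log2(FPKM + 1) and log2(FPKM + 0.1). These values do not show that the genotypes had equal levels, since a log2 fold change of 1 lies within 2 SE of the estimate for every gene except TOC1. In the authors' deposited table the log2 fold changes were 0.40 for LHY, 0.72 for GIGANTEA-like and between 0.22 and 0.58 for the others, with adjusted p of 0.101 or more.

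Leaving out nor-like1 replicate 1 turned LHY from higher to lower and brought 3 evening genes past the threshold. The fit without that library gave a log2 fold change of -1.20 (SE 0.44, edgeR adjusted p = 0.0968) for LHY. GIGANTEA-like then rose by 1.16 (SE 0.15, adjusted p = 0.00736), PRR5 by 1.09 (SE 0.27, adjusted p = 0.0345) and GIGANTEA by 0.91 (SE 0.25, adjusted p = 0.0462), where 22.5% of all genes tested were called. The library was doubted because of these same genes, so the values without it are not independent of that choice. Without any other single library 0 clock genes were called (without WT replicate 3, 14.1% of all genes were called higher and 14.4% lower), and GIGANTEA-like stayed between 0.49 and 0.87. PRR5 then gave values from 0.37 without nor-like1 replicate 2 to 0.97 without WT replicate 1, and GIGANTEA values from 0.20 without nor-like1 replicate 2 to 0.64 without WT replicate 1. The APRR5-like gene gave -0.01 without WT replicate 1.

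**Figure D4:**
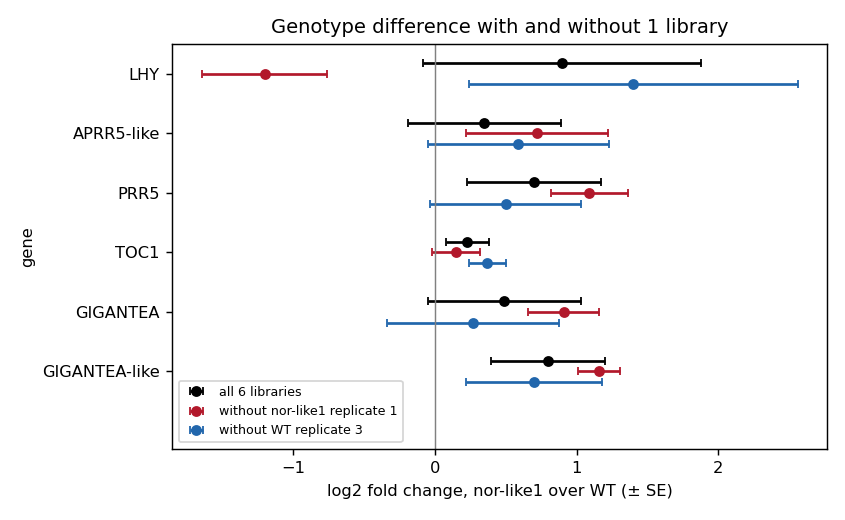
Log2 fold change of nor-like1 over WT with its SE for each clock gene, from all 6 libraries (black), without nor-like1 replicate 1 (red) and without WT replicate 3 (blue). LHY moves from 0.90 to -1.20 when nor-like1 replicate 1 is left out, and GIGANTEA-like from 0.80 to 1.16.

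Per length, the levels fell into a common order in both genotypes. On the FPKM scale the WT means were 35.7 ± 4.13 for GIGANTEA-like, 30.7 ± 8.28 for GIGANTEA, 20.9 ± 3.60 for TOC1, 2.07 ± 1.03 for LHY, 1.97 ± 0.577 for PRR5 and 0.497 ± 0.231 for the APRR5-like gene (SD, n = 3). In nor-like1 they were 61.2 ± 30.0, 42.4 ± 24.9, 23.7 ± 2.55, 3.89 ± 5.14, 3.18 ± 1.67 and 0.617 ± 0.292 FPKM. GIGANTEA-like, GIGANTEA and TOC1 overlapped with their neighbours in this order in each genotype, as did LHY and PRR5, while TOC1 lay above LHY in every library. PRR5 lay below LHY in nor-like1 replicate 1 (1.28 against 9.83 FPKM) and in WT replicate 3 (1.45 against 3.26 FPKM) and above it in the other 4 libraries. TOC1 and both GIGANTEA genes were above LHY in all 6 libraries. GIGANTEA was 1.38 times LHY in FPKM in nor-like1 replicate 1, 6.52 times in WT replicate 3, 24.8 and 23.4 times in WT replicates 1 and 2, and 54.3 and 70.8 times in nor-like1 replicates 2 and 3.

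The genes whose profile over the 6 libraries lay nearest to that of GIGANTEA included other clock members. Likeness was measured as the root-mean-square difference of log2 CPM profiles, each centred on its own mean, over the 13602 other genes that averaged 5 CPM or more. PRR5 was the nearest of all (0.23), and GIGANTEA-like was the fifth (0.32). Between them came a chlorophyll a-b binding protein (Solyc02g071020.4, 0.24), which was at 32.3 CPM in nor-like1 replicate 1 and at 92.2 and 82.5 CPM in replicates 2 and 3, an ATP synthase protein I-related gene (Solyc07g055050.3, 0.24) and a cytochrome P450 (Solyc03g026130.3, 0.28). The median over all genes was 0.80, and LHY lay at 1.94.

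By this measure the profile of LHY had no neighbour as close. The measure is not scaled for how widely a gene varies, and LHY varied most of the clock genes within nor-like1. The nearest was the ethylene receptor-like gene ETR6 (Solyc09g089610.3) at 0.61, which stood at 80.8, 23.1 and 21.9 CPM across nor-like1. A mitochondrial cysteine synthase (Solyc01g094790.3, 0.68), an EIN3-binding F-box protein 1-like gene (Solyc07g008250.3, 0.69), phytosulfokines 3 (Solyc02g092110.3, 0.69) and a DCR-like acyltransferase (Solyc05g052680.1, 0.69) followed, against a median of 1.23 over all genes. ETR6 and the EIN3-binding F-box protein belong to ethylene perception and signalling.

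Ripening genes also set nor-like1 replicate 1 apart from replicates 2 and 3. The summed level of 5 ripening markers was 1146, 271.4 and 210.5 CPM across nor-like1 and 1843, 412.3 and 482.4 CPM across WT. E8 (Solyc09g089580.4), an ethylene-responsive ripening gene, stood at 293.9, 27.1 and 13.1 CPM across nor-like1 and at 1195, 148.2 and 119.4 CPM across WT. The WT library with high ripening markers was replicate 1, and the WT library with high LHY was replicate 3. In WT replicate 1, LHY (4.82 CPM), GIGANTEA-like (178.3 CPM), GIGANTEA (160.0 CPM) and TOC1 (56.8 CPM) lay close to WT replicate 2. PRR5 was higher in WT replicate 1 than in WT replicate 2 (7.61 and 5.40 CPM). The APRR5-like gene was lower (0.581 and 1.59 CPM), and within each genotype it was lowest in the library with high ripening markers. The part of fruit stage in the clock gene differences within nor-like1 was not tested. Genes described as heat shock proteins or heat stress factors, 78 listed, summed to 10650, 10740 and 8124 CPM in WT and to 5279, 4151 and 4943 CPM in nor-like1. The 35 genes matched by phloem and xylem names summed to between 550.0 and 602.1 CPM in WT and to 602.5, 751.0 and 774.1 CPM in nor-like1; many of them are F-box proteins named after a phloem protein.

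Other clock genes were taken by name from the gene descriptions and best protein hits, 28 in all, of which 25 were tested. REVEILLE genes are named here by best hit. The gene called REVEILLE 7 (Solyc03g098320.5) is described as REVEILLE 1, and the gene called REVEILLE 1 (Solyc02g036370.3) as REVEILLE 7-like. The REVEILLE genes, MYB factors related to LHY, were all higher in nor-like1 replicate 1 than in the mean of replicates 2 and 3 (5 of 5, by 0.27 to 1.86 on the log2 scale). The LNK genes, partners of REVEILLE proteins in Arabidopsis, were lower there. So were the pseudo-response regulators PRR37 and PRR73, relatives of Arabidopsis PRR7, which with the LNK genes made 4 of 4 tested. A further gene with PRR37 as best hit (Solyc04g049680.2) was not tested. The differences were -1.27 for LNK1, -1.26 for LNK2 and -1.23 for PRR37, with PRR73 nearest to 0. This grouping was made after the values were seen. Over all tested genes the median of that difference was 0.01, and its central 95% ran from -1.25 to 0.92. REVEILLE 7 (Solyc03g098320.5) stood at 20.5, 6.03 and 5.23 CPM across nor-like1 and at 20.0, 21.3 and 23.4 CPM across WT. PRR37 (Solyc04g049670.4) stood at 133.3, 320.0 and 307.7 CPM across nor-like1 and at 236.4, 220.8 and 197.0 CPM across WT. The 3 WT libraries lay close together in both genes, and for REVEILLE 7 nor-like1 replicate 1 lay within the WT range.

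In WT replicate 3 the shift was seen in fewer of these genes. REVEILLE 8-like (Solyc10g084370.3), whose relative in Arabidopsis activates evening genes, stood at 1.69, 1.15 and 3.83 CPM across WT and at 7.02, 3.02 and 1.90 CPM across nor-like1, so that WT replicate 3 and nor-like1 replicate 1 were each the highest of their genotype, as for LHY. The other 4 REVEILLE genes lay within 0.19 of the mean of WT replicates 1 and 2. The LNK genes lay at -0.16 and 0.59 and PRR37 and PRR73 at -0.21 and 0.03, so 1 gene of each pair was above that mean. For WT replicate 3 the central 95% of all tested genes ran from -0.78 to 1.79, a span that holds the LHY difference of 1.13. The EARLY FLOWERING 3 and EARLY FLOWERING 4 families, parts of the evening complex that holds down growth and clock genes at night, stayed between -0.31 and 0.40 in nor-like1 replicate 1.

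**Figure D5:**
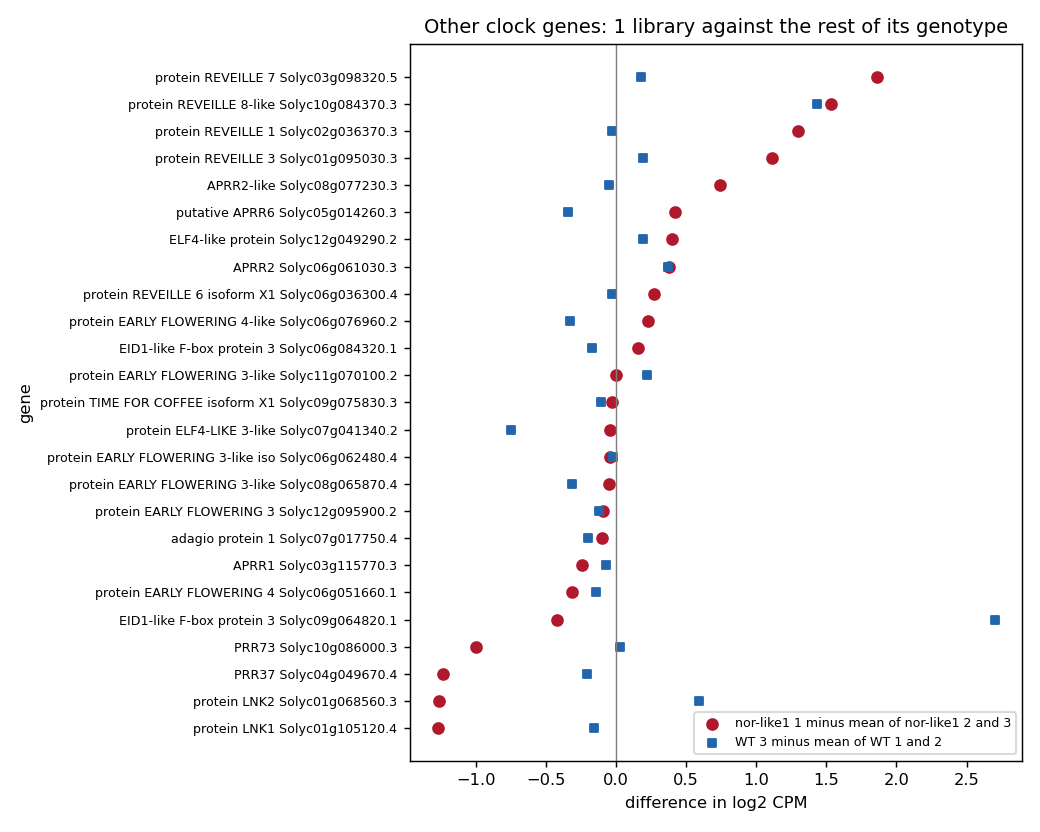
Difference in log2 CPM between a single library and the mean of the other libraries of its genotype, for 25 other clock genes named on the vertical axis: nor-like1 replicate 1 (red circles) and WT replicate 3 (blue squares). REVEILLE genes lie to the right and LNK, PRR37 and PRR73 genes to the left for nor-like1 replicate 1.

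Between genotypes, 4 of the 25 other clock genes rose, 3 fell and 18 were not called, against 10.5% of all tested genes called higher and 11.4% called lower. The median log2 fold change was -0.21, and -0.01 over all genes. The 4 that rose were a pair of EID1-like F-box proteins, relatives of a protein that affects the clock in tomato, and a pair of APRR2-like genes. The APRR2-like genes carry the name of a response regulator but are known in tomato for fruit chloroplast development rather than the clock. APRR2-like Solyc08g077230.3 averaged 8.40 ± 0.395 CPM across WT and 18.8 ± 6.01 CPM across nor-like1 (SD, n = 3 each; edgeR adjusted p = 0.0144, 0.0519 without WT replicate 1 and 0.0547 without WT replicate 2) and APRR2-like Solyc06g061030.3 averaged 34.7 ± 5.47 and 62.4 ± 9.83 CPM (adjusted p = 0.0136, 0.0607 without WT replicate 2). The EID1-like gene Solyc06g084320.1 averaged 10.8 ± 0.729 CPM across WT and 17.3 ± 1.23 CPM across nor-like1 (adjusted p = 0.012). Its relative Solyc09g064820.1 stood at 0.232, 0 and 0.668 CPM across WT and at 3.65, 4.67 and 5.11 CPM across nor-like1 (log2 fold change 3.74, adjusted p = 0.0112), a size that ranged over the 13 alternatives from 2.39 in limma on log2(FPKM + 1) to 4.91 without WT replicate 3, since WT held few counts.

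Among those that fell, the ELF4-LIKE gene Solyc07g041340.2 averaged 31.7 ± 8.63 CPM across WT and 13.5 ± 1.08 CPM across nor-like1 (SD, n = 3 each; edgeR adjusted p = 0.0109). EARLY FLOWERING 3-like (Solyc06g062480.4) averaged 42.6 ± 1.86 CPM across WT and 31.6 ± 1.13 CPM across nor-like1 (adjusted p = 0.019). The call was lost when WT replicate 1 (0.0774) or 2 (0.0655) was left out, when nor-like1 replicate 2 (0.0548) or 3 (0.0658) was, and with the replicate block (0.0564). The third, an EARLY FLOWERING 4-like gene (Solyc06g076960.2), gave -0.57 on the log2 scale (adjusted p = 0.0467) and was not called in 8 of 13 alternatives. These were DESeq2 (0.0566), upper-quartile factors (0.0559), the replicate block (0.0814) and the omission of any single library but WT replicate 3, where its adjusted p reached at most 0.144. These 3 genes, picked here because they were called lower, did not overlap between genotypes. Of the 25 other clock genes, 8 did not overlap and were lower in nor-like1, and 4 did not overlap and were higher. Over all tested genes the shares were 22.4% and 20.5%. In each of the 3 called genes nor-like1 replicate 1 lay within 0.23 of the mean of the other nor-like1 libraries. Without nor-like1 replicate 1, 7 of the other clock genes (28%) were called higher and 6 (24%) lower, where 11.1% and 11.4% of all genes were. PRR37, PRR73 and LNK1 were then among the higher ones and REVEILLE 1, 3 and 7 among the lower ones. REVEILLE 7 gave a log2 fold change of -1.93 (edgeR adjusted p = 0.00278) in that fit. That library was doubted because of clock genes, and these genes were named after their values were seen. Their calls without it are therefore not independent of that choice. Without WT replicate 2, 2 were called higher, beside 3.59% of all genes. When WT replicate 1 or 2, or nor-like1 replicate 2 or 3, was left out, 1 was called lower, beside 3.27% to 4.80% of all genes.

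The light receptors and their signalling partners, 41 tested genes, had 1 member that rose and 7 that fell, against 33 not called; the median log2 fold change was -0.13. These are 2.44% and 17.1% of the list, beside 10.5% and 11.4% of all genes tested. Cryptochrome 1b (Solyc12g057040.2), a blue light receptor, averaged 155.7 ± 11.7 CPM across WT and 83.1 ± 13.5 CPM across nor-like1 (SD, n = 3 each; edgeR adjusted p = 0.00822). Phototropin 2 (Solyc01g097770.4), also a blue light receptor, averaged 296.2 ± 29.4 CPM across WT and 131.6 ± 39.2 CPM across nor-like1 (adjusted p = 0.0142, 0.0557 without WT replicate 2). PIF3 (Solyc01g102300.3), a factor that phytochromes remove in light, averaged 289.0 ± 51.2 CPM across WT and 145.0 ± 28.3 CPM across nor-like1 (adjusted p = 0.0148, 0.059 without WT replicate 2).

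COP1 (Solyc12g005950.2), the ubiquitin ligase that removes light-signalling factors in the dark, averaged 201.2 ± 37.9 CPM across WT and 108.1 ± 18.5 CPM across nor-like1 (SD, n = 3 each; edgeR adjusted p = 0.0175). Its adjusted p lay between 0.0596 and 0.0705 when WT replicate 1 or 2, or nor-like1 replicate 2 or 3, was left out. A UVR8-like gene (Solyc09g011160.4) averaged 5.75 ± 2.35 CPM across WT and 1.17 ± 0.684 CPM across nor-like1 (adjusted p = 0.0277, between 0.0638 and 0.0938 when any of the same 4 libraries was left out, and 0.06 with the replicate block). The gene that rose, also UVR8-like (Solyc07g063300.3), averaged 14.3 ± 0.862 CPM across WT and 20.9 ± 1.04 CPM across nor-like1 (adjusted p = 0.017, between 0.0559 and 0.0727 when any of those libraries was left out). Leaving out WT replicate 2 took the light genes called lower to 1, or 2.44% of the list, where all genes called lower went to 3.27%. Leaving out WT replicate 3 took them to 11, or 26.8%, where all genes went to 14.4%. Leaving out WT replicate 1 or nor-like1 replicate 2 or 3 took them to 3, where all genes went to between 3.99% and 4.80%.

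Clock output and day-length genes, a list that also takes glycine-rich RNA-binding proteins and CONSTANS-interacting proteins, comprised 53 tested genes, of which 3 rose, 10 fell and 40 were not called, with a median log2 fold change of -0.08. These are 5.66% and 18.9% of the list, beside 10.5% and 11.4% of all genes tested. A glycine-rich RNA-binding protein (Solyc10g051373.1), of the family that holds the clock-controlled GRP7 of Arabidopsis, averaged 31.5 ± 6.01 CPM across WT and 6.83 ± 1.96 CPM across nor-like1 (SD, n = 3 each, edgeR adjusted p = 0.00281). A further one (Solyc10g047130.2) averaged 160.0 ± 12.7 CPM across WT and 96.3 ± 8.81 CPM across nor-like1 (adjusted p = 0.00813). The list genes with GRP1A as best hit were not called. These were Solyc03g071560.4 (log2 fold change -0.43, adjusted p = 0.0791) and Solyc11g008210.3 (-0.10, adjusted p = 0.481). CONSTANS-LIKE 6 (Solyc03g083400.3) averaged 16.5 ± 1.96 CPM across WT and 5.84 ± 1.01 CPM across nor-like1 (adjusted p = 0.00362), and the CONSTANS-LIKE 16-like gene Solyc03g119540.3 averaged 42.4 ± 8.38 CPM across WT and 15.6 ± 3.60 CPM across nor-like1 (adjusted p = 0.00674). A further CONSTANS-LIKE 16-like gene (Solyc05g009310.3) averaged 13.0 ± 1.88 CPM across WT and 6.60 ± 0.722 CPM across nor-like1 (adjusted p = 0.00996). A mitochondrial glycine-rich RNA-binding protein (Solyc02g088790.3) averaged 11.1 ± 0.792 CPM across WT and 19.1 ± 1.96 CPM across nor-like1 (adjusted p = 0.00934). The 6 called genes named here remained called without any single library, and nor-like1 replicate 1 lay on the mutant side of every WT library in each. Both traits are tied to their choice by smallest adjusted p. Over all tested genes, 42.9% did not overlap between genotypes. Among uncalled genes, a cyclic dof factor 1 gene (Solyc05g007880.4) stood at 16.3, 5.55 and 6.77 CPM across nor-like1. A glycine-rich RNA-binding gene (Solyc01g109660.2) stood at 819.1, 2207 and 2136 CPM there. Over the list, the median log2 difference of nor-like1 replicate 1 from replicates 2 and 3 was -0.02. The number called lower in this list was 6 without WT replicate 2 (11.1%, and 3.27% of all genes), and the number called higher was 6 without WT replicate 3 (10.9%, and 14.1% of all genes).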

How the data were processed

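The authors deposited 1 table per library with expected counts per gene and FPKM, per the file headers, from total RNA extracted with Trizol and MGI libraries, per the labels' protocols. Per the submitters' processing notes the tools were HISAT2, StringTie, Bowtie2 and RSEM, with no version or role stated; genome build, annotation and strand use were not given. Expected counts can divide reads between similar genes, such as the GIGANTEA pair. A gene absent from 1 table but listed in another was set to 0. A table of the authors' own DESeq2 comparison was deposited too, holding log2 fold changes and p-values. Its expression columns by group are a deposited signal of unstated scale and were not used.

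Counts were rounded and tested over 16380 genes with edgeR 4.0.16 under R 4.3.3 (TMM, filterByExpr, robust quasi-likelihood F test, genotype only). All 6 members passed the filter. The SE is the absolute log2 fold change over the square root of F, and single-gene p-values come from this fit unless another is named. Log2 CPM used a prior count of 0.5. The test was tried on simulated data. Alternatives were DESeq2 1.42.0, upper-quartile factors, other filters, limma 3.58.1 on log2(FPKM + 1) and log2(FPKM + 0.1), a replicate block and leaving out each library. The members and lists were chosen with earlier results of these data known. The pattern for LHY was narrowed after it was seen to match gamma-glutamyl hydrolases, and FKF1, planned as an evening gene, had no row. Named genes were the members, SlNOR-like1, at most 6 called genes a list by adjusted p, and the 5 nearest profiles to LHY and GIGANTEA. Further genes were named after their values were seen: REVEILLE 1, 3, 7 and 8, LNK1, PRR37 and PRR73. E8, the seventh called gene of the other clock list and the uncalled clock output genes were also named that way.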

Additional observations from a re-analysis of the deposited data

How the results depend on the processing

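TOC1 kept its direction and stayed uncalled under all 13 alternatives, with a log2 fold change of 0.15 to 0.37. With 1 library left out, the ranges were -1.20 to 1.40 for LHY, -0.01 to 0.72 for the APRR5-like gene, 0.37 to 1.09 for PRR5, 0.20 to 0.91 for GIGANTEA, 0.49 to 1.16 for GIGANTEA-like and -1.94 to 0.43 for the morning minus evening difference, which was reversed at 0.11, 0.38 and 0.43. LHY was reversed at -1.20 without nor-like1 replicate 1, and the APRR5-like gene at -0.01 without WT replicate 1. The number of clock members called higher ranged from 0 to 3, of other clock genes from 2 to 7 higher and 1 to 6 lower, of light genes from 0 to 1 higher and 1 to 11 lower, of output genes from 2 to 6 higher and 6 to 12 lower, and of all genes from 596 to 2352 higher and 543 to 2390 lower. Fewer samples enter these fits; otherwise the cause was not tested.

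Same-numbered libraries of the genotypes did not all deviate together (r = 0.196, -0.21 and -0.00655 for numbers 1 to 3). The replicate 1 libraries correlated best with each other, while the highest value joined WT replicate 3 and nor-like1 replicate 2 (r = 0.311). The lowest joined WT replicate 3 and nor-like1 replicate 1 (r = -0.232). The labels state no pairing, and these correlations cannot show whether same-numbered libraries shared a harvest or batch. With the replicate block 1 other clock gene and 4 light genes were called lower, against 3 and 7 without it, and 0 clock members. LHY moved from 0.90 to 0.17 with the block and to 0.21 and 0.10 in limma on FPKM. No other scaling, filter or test reversed a member or moved a count by more than 1.5 times. For the APRR5-like gene, with 8 to 26 counts a library, depth limits what can be shown.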

Other observations

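The GIGANTEA genes did not keep a fixed ratio. GIGANTEA-like over GIGANTEA, on the FPKM scale, came to 1.00, 1.15 and 1.47 across WT and to 2.01, 1.46 and 1.29 across nor-like1 in replicate order, so it was highest within each genotype in the libraries with the highest LHY. GIGANTEA-like was therefore the less variable of the pair in both genotypes, with a ratio of highest to lowest library of 1.26 in WT and 3.12 in nor-like1, against 1.78 and 4.28 for GIGANTEA. The ratio is a description of 6 libraries and was not tested.

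The gene length behind the FPKM of LHY, which the authors' tables give as an average over an annotated and an unannotated transcript, was 2954 bases in nor-like1 replicate 2 and between 3164 and 3275 bases in the other 5 libraries. nor-like1 replicate 2 held 33 counts of LHY, so the transcript mix there rests on few reads.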
